A study of Mus musculus with 6 samples.

Results

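Apolipoprotein E (*Apoe*) and 8 further genes of macrophage lipid handling, *Pltp*, *Abca1*, *Abcg1*, *Nr1h3*, *Lpl*, *Lipa*, *Lrp1* and *Fabp4*, are described here in macrophages of the mouse mammary gland. The 9 genes were taken by symbol from a table of 24061 gene symbols, in which all 9 were present, and all 9 were among the 13348 genes tested. Bulk RNA-seq had been done on cells gated as CD45+CD11b+F4/80+ from the inguinal glands of FVB/N mice, freed of lymph nodes, with 3 libraries from Lyve-1+ and 3 from Lyve-1- cells. The labels list no transgene, deletion or treatment. Each library held cells pooled from 4 mice. Replicate 1 of each subset came from 6-week-old mice, and replicates 2 and 3 came from 10-week-old mice. The comparison asks how the lipid-handling transcripts of macrophages that carry the hyaluronan receptor Lyve-1 on their surface differ from those of macrophages that do not.

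Macrophages take up lipoproteins, membranes and dead cells, split the cholesterol esters in lysosomes and return the cholesterol to the outside. Efflux runs through the membrane transporters ABCA1 and ABCG1 to acceptors such as apolipoprotein E, and the sterol-sensing nuclear receptor LXR alpha, the product of *Nr1h3*, is known to raise the transcription of *Apoe*, *Abca1*, *Abcg1*, *Pltp* and *Lpl* in macrophages. In a gland that is largely fat pad, lipoprotein lipase and the fatty acid chaperone FABP4 are also abundant in adipocytes and, for FABP4, in capillary endothelium.

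The libraries held between 6478007 and 21406839 counts, so that 3 counts, the most that a count of 0 allows, amounted to 0.144 to 0.437 CPM (counts per 1000000 of a library's total, adjusted by TMM, which evens out differences in composition between libraries). These limits cover counting error only. *Lyve1* itself ran from 1.43 to 7.44 CPM in the Lyve-1- libraries and from 597 to 2352 CPM in the Lyve-1+ libraries (edgeR adjusted p = 0.0254), the direction of the labels. Macrophage markers summed to 9260 to 12240 CPM in the Lyve-1- libraries and 11750 to 13110 CPM in the Lyve-1+ libraries. Most olfactory receptor genes are not known to be used by macrophages. The number of these genes with a count was highest in Lyve-1- replicate 3 (652 of 1122 genes, 9406 counts) and Lyve-1+ replicate 1 (370 genes, 3617 counts). It was 134 in Lyve-1+ replicate 2, which held 4160 such counts, and 4 to 34 in the others. In these sorted populations, fewer cells of a type cannot be told apart from less RNA per cell.

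The starts of 3 of the genes are shown because these 3 were the members whose Lyve-1+ libraries all lay above their Lyve-1- libraries. Each stretch runs from 250 bases before a RefSeq transcript start to 50 bases after it (GRCm38.p6, the build called mm10 in the processing notes). All 3 genes are on the minus strand, and *Apoe* has 2 more such stretches that are not printed. Capitals mark the GC box letters GGGCGG, the E-box letters CACGTG, the TATA box letters TATAAA and the nuclear receptor core letters AGGTCA, searched on both strands.
*Apoe*, chr7:19699139-19699438, minus strand: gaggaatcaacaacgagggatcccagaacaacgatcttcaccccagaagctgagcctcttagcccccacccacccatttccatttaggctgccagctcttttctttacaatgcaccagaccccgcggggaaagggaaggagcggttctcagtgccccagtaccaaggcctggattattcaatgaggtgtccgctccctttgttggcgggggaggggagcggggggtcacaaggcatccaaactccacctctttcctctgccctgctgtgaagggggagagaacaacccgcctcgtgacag
*Pltp*, chr2:164857659-164857958, minus strand: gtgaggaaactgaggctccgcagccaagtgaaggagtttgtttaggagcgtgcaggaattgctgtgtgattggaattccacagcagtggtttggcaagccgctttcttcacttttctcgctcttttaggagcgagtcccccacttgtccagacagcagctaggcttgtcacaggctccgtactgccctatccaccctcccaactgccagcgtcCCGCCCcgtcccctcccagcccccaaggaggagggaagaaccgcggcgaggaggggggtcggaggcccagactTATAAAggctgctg
*Abca1*, chr4:53159846-53160145, minus strand: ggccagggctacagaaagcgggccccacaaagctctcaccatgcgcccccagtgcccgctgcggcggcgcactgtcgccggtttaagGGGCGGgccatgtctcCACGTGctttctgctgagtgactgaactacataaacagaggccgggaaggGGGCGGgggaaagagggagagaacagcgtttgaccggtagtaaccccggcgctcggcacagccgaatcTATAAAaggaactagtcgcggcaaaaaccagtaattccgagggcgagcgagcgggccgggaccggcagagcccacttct

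The *Abca1* stretch held GGGCGG at 163 and 97 bases before the start, CACGTG at 147 and TATAAA at 29. The *Pltp* stretch held GGGCGG, read on the other strand, at 37 bases before the start and TATAAA at 37 bases after it. The printed *Apoe* stretch held none of these letters, and AGGTCA was in none of the stretches of any member. Of 32851 stretches of this length over all genes, 35.7% held GGGCGG, 7.15% held CACGTG, 13.6% held TATAAA and 16.3% held AGGTCA. An exact direct repeat of AGGTCA with 4 bases between the copies, the idealised form of an LXR element, was in 0.0152% of all stretches. It was in none of the members'. A repeat this rare would hardly be met in so few stretches, so its absence from the members' says little. Only exact letters were searched, so the search cannot tell whether elements that depart from these letters are present. The printed *Abca1* stretch holds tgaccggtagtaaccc, which reads GGGTTA, 4 bases and CGGTCA on the other strand, an inexact form of this repeat. Whether it acts as an LXR element was not tested. *Nr1h3*, *Lipa* and *Lrp1* also had entries, and the stretches for *Lpl*, *Abcg1* and *Fabp4* were not analysed here.

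*Apoe* rose in the Lyve-1+ subset and was the only 1 of the 9 genes to pass the test. The test was edgeR's quasi-likelihood test on the counts, with the subset as its only term and Benjamini-Hochberg adjustment over all genes, with calls made below an adjusted p of 0.05. By this limit 1 of 9 members was called higher, where 0.45% of all genes tested were, and 0 of 9 were called lower, where 0.18% of all genes were. DESeq2 called 2 members higher and 0 lower, where it called 1.04% and 0.862% of all genes. At an unadjusted p under 0.05 the count was 3 of 9 members, all higher, and 7.69% of all genes. The 3 were *Apoe*, *Pltp* and *Abca1*, whose Lyve-1+ libraries all lay above all Lyve-1- libraries, an arrangement found in 7.82% of the genes tested. No member had its Lyve-1- libraries all above, as 6.5% of genes did. The median log2 fold change (Lyve-1+ over Lyve-1-) was 0.45 over the 9 members and -0.01 over all genes.

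**Figure D1:**
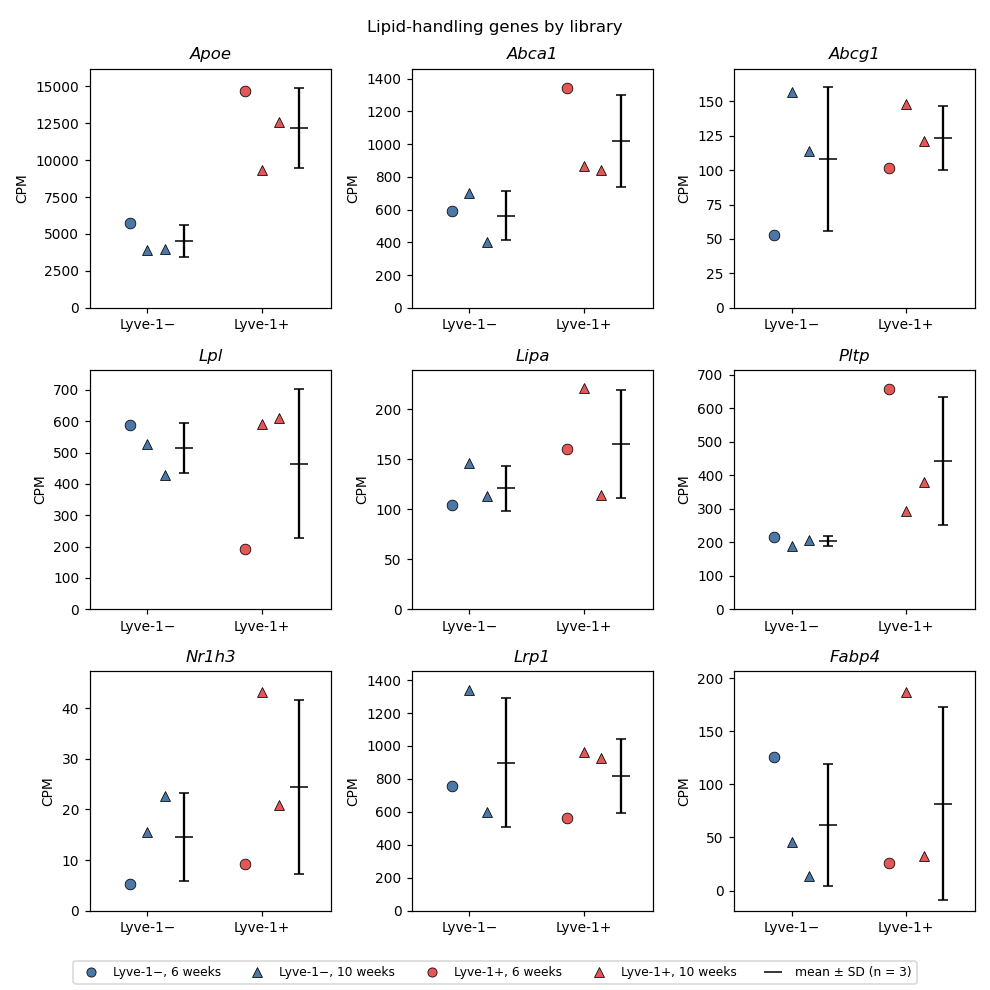
CPM of each of the 9 genes (vertical axis, linear, a separate scale for each gene) in the 3 Lyve-1- and 3 Lyve-1+ libraries, with circles for 6-week and triangles for 10-week pools and bars for the mean ± SD (n = 3). *Apoe*, *Pltp* and *Abca1* show no overlap between the subsets, while the lowest *Lpl* value and the highest *Fabp4* value are each 1 Lyve-1+ library standing away from the other 2. The *Fabp4* SD bar reaches below 0, where no level can lie.

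*Apoe* (chromosome 7, 19696109 to 19699188, minus strand, positions of all members from GENCODE M21 on mm10) encodes the lipid carrier that macrophages secrete to take up cholesterol and that binds receptors of the LDL receptor family. The raw counts of Lyve-1- replicates 1, 2 and 3 were 68560, 43681 and 27185, and those of the Lyve-1+ replicates were 192454, 194829 and 99679. Scaled, these were 5761, 3881 and 3963 CPM against 14660, 9334 and 12560 CPM. The lowest Lyve-1+ library was well above the highest Lyve-1- library. The mean was 4535 ± 1062 CPM (SD, n = 3 pools) in Lyve-1- cells and 12190 ± 2684 CPM (SD, n = 3) in Lyve-1+ cells, a 2.69-fold difference (log2 fold change 1.43, 95% interval 0.91 to 1.94, edgeR adjusted p = 0.015). *Apoe* alone took 0.389% to 0.567% of all counts in the Lyve-1- libraries and 0.91% to 1.41% in the Lyve-1+ libraries.

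Per kilobase of its main transcript, *Apoe* was among the most abundant messages of these cells. Of 13264 tested genes with a transcript length in GENCODE M21, it ranked 5, 9 and 8 in the Lyve-1- libraries and 1, 3 and 2 in the Lyve-1+ libraries. The other members ranked far lower, with *Pltp* between 156 and 685 and *Nr1h3* between 2932 and 8445. The call for *Apoe* was lost without Lyve-1- replicate 3 (log2 fold change 1.34, edgeR adjusted p = 0.111) and without both libraries with the most olfactory receptor genes counted (log2 fold change 1.16, edgeR adjusted p = 0.23). In edgeR it also missed the limits of the study's heat map, an adjusted p under 0.01 with a fold change between 1 and 10, read here on the log2 scale, which 0.112% of all genes passed. With DESeq2, the tool the study used, *Apoe* was inside those limits (log2 fold change 1.39, adjusted p = 9.22e-07), as were 1.09% of all genes.

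*Pltp* (chromosome 2, 164839518 to 164857711) encodes phospholipid transfer protein, a secreted protein that moves phospholipid and cholesterol between lipoproteins. It was at 216, 189 and 207 CPM in Lyve-1- replicates 1, 2 and 3 and at 658, 293 and 379 CPM in the Lyve-1+ replicates. The Lyve-1- libraries lay close together, and all Lyve-1+ libraries were above them, the 6-week one by the most. The log2 fold change was 1.12 (95% interval 0.47 to 1.77), which did not pass the test (edgeR adjusted p = 0.164), whereas DESeq2 gave 1.08 with an adjusted p of 0.0218. The edgeR value was 0.73 when Lyve-1+ replicate 1 was left out (edgeR adjusted p = 0.728). *Pltp* shares 495 exonic bases with *Ctsa* on the opposite strand, and whether reads were counted by strand is not given in the sources used here. *Ctsa*, which encodes a lysosomal carboxypeptidase, was at 374 to 577 CPM in Lyve-1- libraries and 494 to 687 CPM in Lyve-1+ libraries, with overlap.

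*Abca1* (chromosome 4, 53030787 to 53159895), which hands cholesterol to lipid-poor apolipoproteins, was at 590.5, 698 and 400.3 CPM in the Lyve-1- replicates and at 1345, 867 and 845 CPM in the Lyve-1+ replicates. The subsets did not overlap, and 1 Lyve-1+ library, replicate 1 from 6-week-old mice, was clearly above the other 2. The log2 fold change of 0.86 (95% interval 0.26 to 1.45) did not pass the test (edgeR adjusted p = 0.299). Without both libraries with the most olfactory receptor genes counted it was 0.39, and that of *Pltp* was 0.71. *Abcg1* (chromosome 17, 31057675 to 31117988), which hands cholesterol to mature high-density lipoprotein, was at 52.8, 157 and 114 CPM in the Lyve-1- replicates and at 102, 148 and 121 CPM in the Lyve-1+ replicates. Its subsets overlapped and its log2 fold change was 0.20 (95% interval -0.60 to 0.99, edgeR adjusted p = 1.00). Whether the differences of these transporter genes differ from each other was not tested.

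*Nr1h3* (chromosome 2, 91184061 to 91202834), the gene of LXR alpha, had the lowest level per kilobase of the 9 genes in every library, from 2.71 to 22.1 CPM per kb. It was at 5.29, 15.6 and 22.6 CPM in the Lyve-1- replicates and at 9.30, 43.2 and 20.9 CPM in the Lyve-1+ replicates. The subsets overlapped, and the lowest library of each was the 6-week one. The log2 fold change was 0.76 with a wide 95% interval of -0.85 to 2.36 (edgeR adjusted p = 1.00), and replicate 1 of the Lyve-1- subset held 63 raw counts.

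Neither lipase passed the test. *Lpl* (chromosome 8, 68880491 to 68907448) encodes the secreted lipase that frees fatty acids from lipoprotein triglyceride. It was at 587, 528 and 429 CPM in the Lyve-1- replicates and at 191, 592.5 and 610.3 CPM in the Lyve-1+ replicates. Lyve-1+ replicate 1 was the lowest of the 6 libraries, and the other 2 Lyve-1+ libraries were the highest. The log2 fold change was -0.15 (95% interval -0.93 to 0.64, edgeR adjusted p = 1.00), and it was 0.24 without Lyve-1+ replicate 1. *Lipa* (chromosome 19, 34492318 to 34527474) encodes lysosomal acid lipase, which splits the cholesterol esters that arrive in lysosomes. It was at 104, 146 and 113 CPM in the Lyve-1- replicates and at 159.9, 221.5 and 114 CPM in the Lyve-1+ replicates, with overlap and a log2 fold change of 0.45 (95% interval -0.23 to 1.12, edgeR adjusted p = 0.965), which was 0.16 without Lyve-1+ replicate 2.

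*Lrp1* (chromosome 10, 127538161 to 127621148) encodes a large endocytic receptor that binds apolipoprotein E among many ligands. It was at 754, 1342 and 599 CPM in the Lyve-1- replicates and at 561, 965 and 927 CPM in the Lyve-1+ replicates. Both the highest and the second-lowest value belonged to Lyve-1- libraries, and the log2 fold change was -0.14 (95% interval -0.80 to 0.53, edgeR adjusted p = 1.00). The direction turned when Lyve-1- replicate 2 was left out (0.28) or when Lyve-1+ replicate 1 was (0.09).

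*Fabp4* (chromosome 3, 10204088 to 10208576), the fatty acid chaperone of adipocytes, capillary endothelium and some macrophages, had the widest interval of the 9 genes. It was at 126, 45.7 and 13.9 CPM in the Lyve-1- replicates and at 26.1, 187 and 32.8 CPM in the Lyve-1+ replicates. No order by subset or age could be read from these values. The log2 fold change of 0.41 had a 95% interval from -1.97 to 2.78 (edgeR adjusted p = 1.00), and it was -1.10 without Lyve-1+ replicate 2, the library with the highest level. In Lyve-1- replicate 1, which had 1499 raw *Fabp4* counts, 6 of the 10 adipocyte genes, among them *Adipoq*, *Plin1* and *Cidec*, had 0 counts, while *Cidea* had 82, *Retn* 68, *Pck1* 57 and *Plin4* 4. The counts of *Cidea* and *Retn* were the highest of the 6 libraries.

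**Figure D2:**
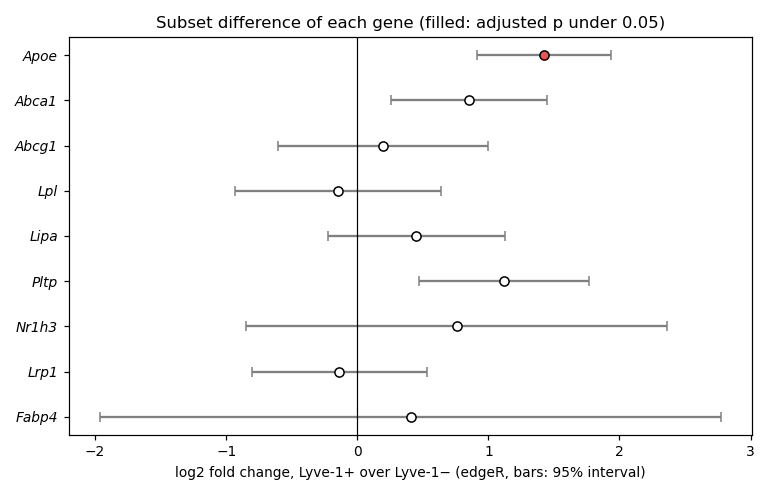
Log2 fold change of each of the 9 genes (horizontal axis, Lyve-1+ over Lyve-1-, edgeR) with its 95% interval. The *Apoe* point, at 1.43, is the 1 filled point (adjusted p under 0.05), the intervals of *Pltp* and *Abca1* lie above 0, and the other 6 include 0.

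Markers of other cells were counted in these sorted libraries, and the sums of fibroblast and of dendritic cell genes did not overlap between the subsets. The 10 fibroblast genes summed to 1117 to 1289 CPM in the Lyve-1- libraries and to 1917 to 7626 CPM in the Lyve-1+ libraries. In edgeR 0 of the 10 passed the test, 7 had an unadjusted p under 0.05 and DESeq2 called 5, and 9 of the 10 log2 fold changes were above 0, with a median of 1.74. The sums of Lyve-1+ replicates 1, 2 and 3 were 2578, 1917 and 7626 CPM, each above every Lyve-1- sum, as the *Apoe*, *Pltp* and *Abca1* levels were. Within the Lyve-1+ libraries the order differed, with the fibroblast sum highest in replicate 3 and *Apoe*, *Pltp* and *Abca1* highest in replicate 1. Replicate 2 was the lowest for the sum, *Apoe* and *Pltp*, and replicate 3 for *Abca1*. The part of fibroblast RNA in the differences of these genes was not tested.

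The 10 blood endothelial genes summed to 219, 162 and 101 CPM in the Lyve-1- replicates and to 136, 334 and 79.0 CPM in the Lyve-1+ replicates. *Fabp4* had its highest and lowest Lyve-1- values in the same libraries as these sums and its highest Lyve-1+ value in the same library, but its other 2 Lyve-1+ values were in the opposite order. The part of endothelial RNA in the *Fabp4* values was not tested. The 10 adipocyte genes summed to 12.4 to 36.7 CPM over all 6 libraries, and *Adipoq*, the adiponectin gene, had at most 24 raw counts in any library. The dendritic cell genes summed to 437 to 899.5 CPM in Lyve-1- and 161 to 383.5 CPM in Lyve-1+ libraries, and their part in the differences was not tested. In edgeR 0 of these 7 genes passed the test, 1 had an unadjusted p under 0.05, and DESeq2 called 0. That gene was *Ccr7*, at 139 to 504.5 CPM in Lyve-1- and 14.8 to 107 CPM in Lyve-1+ libraries. Apart from *Ccr7* and *Xcr1*, each dendritic cell gene overlapped between the subsets. The sums of the remaining lists overlapped and ran from 60.3 to 517 CPM for mammary epithelium, 14.6 to 60.2 for lymphatic endothelium, 313 to 1102 for monocytes, 72.3 to 448 for neutrophils, 58.3 to 214 for T cells and 3.03 to 87.2 for B cells. Over the marker lists edgeR called 1 gene, the macrophage gene *C1qa* (edgeR adjusted p = 0.0376), and *Ccl21a*, a lymphatic endothelial gene, had 0 counts in all 6 libraries.

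**Figure D3:**
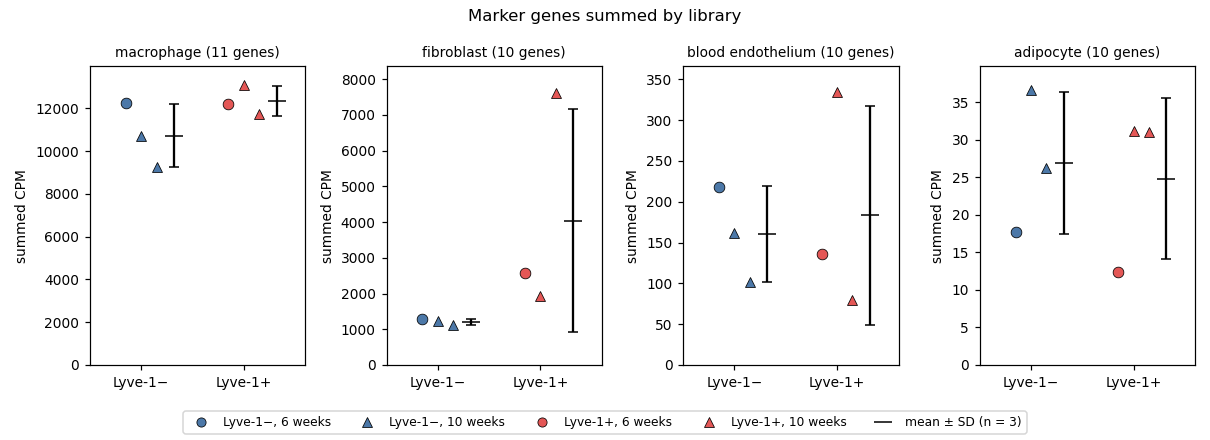
Summed CPM (vertical axis, linear) of marker genes of macrophages, fibroblasts, blood endothelium and adipocytes in each library, with circles for 6-week and triangles for 10-week pools and bars for the mean ± SD (n = 3). Fibroblast markers are higher in all 3 Lyve-1+ libraries and reach 7626 CPM in 1 of them, while the adipocyte markers stay below 37 CPM throughout.

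The 5 genes whose pattern over the 6 libraries was most like that of *Apoe* kept nearly a fixed ratio to it. Likeness was measured as the SD over the 6 libraries of the difference in log2 CPM between a gene and *Apoe*, in 13347 genes. The nearest was *Sepp1*, the plasma selenium carrier selenoprotein P, with an SD of 0.135. It was at 1461, 1077 and 1208 CPM in the Lyve-1- replicates and at 4636, 2386 and 3768 CPM in the Lyve-1+ replicates. *Hpse*, the heparan sulfate-cutting enzyme heparanase, *Hmox1*, the heme-degrading heme oxygenase, *Rhob*, a small GTPase, and *Lrp6*, a Wnt co-receptor related to the LDL receptor, followed with SDs of 0.141, 0.159, 0.176 and 0.18. The subset difference was part of what chose these genes, so no test of it is given for them here. Of the other members, *Pltp* was nearest to *Apoe*, at place 34 with an SD of 0.33, then *Abca1* at place 180 with an SD of 0.46. *Fabp4* was the farthest, at place 8096 with an SD of 1.58. These are descriptions of 6 libraries.

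Within each age, *Apoe* was higher in the Lyve-1+ libraries. The log2 ratio was 1.35 between the 6-week libraries, 1 against 1 and so without a test, and 1.47 between the 10-week libraries, 2 against 2 (standard error 0.24, edgeR adjusted p = 0.0151). *Apoe* and *Pltp* were highest in the 6-week library of either subset, while *Abcg1* and *Nr1h3* were lowest there. The log2 fold change of 10 weeks over 6 weeks, in a fit that also held the subset, was -0.49 for *Apoe*, 0.86 for *Abcg1* and 1.82 for *Nr1h3*, with an unadjusted p of 0.027, 0.0316 and 0.0351. For *Pltp* this fold change was -0.57 (edgeR unadjusted p = 0.0638). All 9 members had an edgeR adjusted p of 1.00 for age, where 0.0225% of all genes passed and 3.33% had an unadjusted p under 0.05, and DESeq2 called 0 members. Each subset had a single 6-week pool, so that age cannot be told apart from that pool. The interaction of subset and age passed for 0 of 9 members in edgeR, with an unadjusted p under 0.05 for *Lpl* and *Fabp4* (log2 1.95 and 4.15, edgeR adjusted p = 0.592 and 0.976). Over all genes 0.00749% passed for the interaction and 4.59% had an unadjusted p under 0.05.

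Around these members, 147 further genes of lipid handling were followed in 8 lists, of which 135 genes could be tested. No gene passed the edgeR test, where 0.629% of all genes did, and 14 had an unadjusted p under 0.05, where 7.69% of all genes did. DESeq2 called 4, *Arl4c*, *Rxra*, *Lrp6* and *Stab1*, where it called 1.04% of all genes higher and 0.862% lower. The median log2 fold change of the 135 genes was -0.16, with 55 above 0 and 80 below.

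Of 18 tested genes of efflux and its control, 8 had a log2 fold change above 0 and 10 below, with a median of -0.08. *Rxra*, the obligate partner receptor of LXR, was at 33.5 to 38.8 CPM in the Lyve-1- libraries and 94.2 to 112 CPM in the Lyve-1+ libraries, with narrow and separate ranges (log2 fold change 1.51, edgeR adjusted p = 0.0618). *Arl4c*, a small GTPase gene that LXR is known to induce, was at 248 to 286 CPM in the Lyve-1- libraries and 97.8 to 131 CPM in the Lyve-1+ libraries (log2 fold change -1.17, edgeR adjusted p = 0.0725), the opposite direction to *Apoe*. *Nr1h2*, which encodes the sister receptor LXR beta, was at 74.1 to 98.8 CPM and 56.2 to 104.6 CPM, with overlap (named after its values were seen).

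Among 15 tested genes of other apolipoproteins and lipoprotein secretion, 13 had a log2 fold change below 0 and the median was -0.49. *Apoc1* and *Apoc2*, neighbours of *Apoe* in its gene cluster, were at 1.17 to 58.8 and 1.6 to 20.6 CPM in the Lyve-1- libraries and 2.67 to 41.6 and 1.6 to 7.31 CPM in the Lyve-1+ libraries. Both overlapped (log2 fold change -0.89 and -0.97, edgeR adjusted p = 1.00 for both). *Apoc4*, also in the cluster, had 0 counts in each Lyve-1- library and 5, 0 and 27 in the Lyve-1+ replicates, too few to be tested. These cluster genes were named after their values were seen. The extremes of this list, *Apoc3* at -2.23 and *Apom* at 2.03, had at least 1 library at 0 counts in each subset.

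Of 18 tested lipoprotein receptors and their adaptors, 8 were above 0 and 10 below, with a median of -0.11. *Lrp6* was at 60.3 to 79.2 CPM in Lyve-1- and 150 to 227 CPM in Lyve-1+ libraries, apart and yet outside the limit (log2 fold change 1.35, edgeR adjusted p = 0.0725). *Vldlr*, the lowest of the list at -2.48, was at 1.6 to 33.9 and 0.431 to 6.25 CPM, with overlap. The 16 lysosomal and stored-cholesterol genes had 12 values above 0 and a median of 0.27, from *Ces1d*, a carboxylesterase, at -2.49 to *Smpd1*, acid sphingomyelinase, at 1.27 (edgeR adjusted p = 1.00 and 0.846).

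The 13 genes that control lipoprotein lipase or break down triglyceride had a median of 0.01, with 7 above 0 and 6 below, and *Lipg*, endothelial lipase, was the highest at 1.97 (edgeR adjusted p = 0.963). The 17 tested genes of fatty acid binding, lipid droplets and PPAR receptors had a median of -0.35, from *Ppara* at -3.23 to *Cpt1a*, which brings fatty acids into mitochondria, at 0.86 (edgeR adjusted p = 0.922 and 0.393). Of 24 sterol synthesis genes, 18 were below 0 with a median of -0.41, from *Hsd17b7* at -1.89 to *Dhcr7* at 1.81, and of 14 fatty acid synthesis genes, 10 were below 0 with a median of -0.46, from *Mlxipl* at -1.65 to *Scd1* at 1.15. In the 2 synthesis lists 0 genes passed the edgeR test or had an unadjusted p under 0.05, and DESeq2 called 0.

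**Figure D4:**
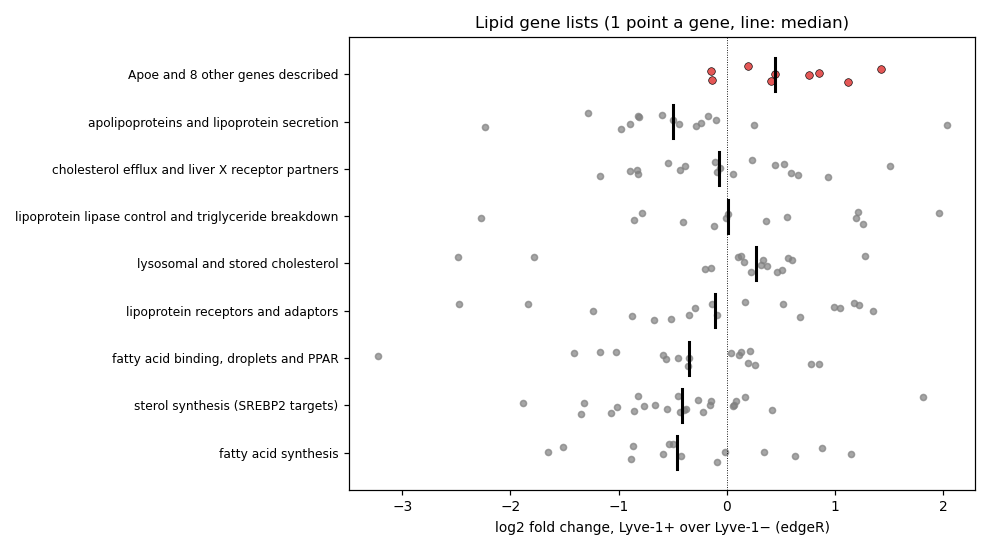
Log2 fold change (horizontal axis, Lyve-1+ over Lyve-1-, edgeR) of the 9 described genes and of the tested genes of 8 lipid lists, 1 point a gene, with a line at each median. The medians run from -0.49 for the other apolipoproteins to 0.45 for the 9 genes, and the points of every list lie on both sides of 0.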

How the data were processed

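RNA extracted from the sorted cells was sequenced as paired 50-bp reads. The authors mapped them to mm10 (HISAT2 2.0.2) and assigned them to genes (featureCounts 1.5.0). An mRNA enrichment step in library preparation is mentioned by the paper. The deposited values are raw counts, without normalization. The kit was a stranded one, and neither the annotation nor the strand setting of the counting is given in the sources used here. A 6-week library that the study removed as an outlier was not analysed here.

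Here, genes were kept by filterByExpr, scaled by TMM and tested with edgeR 4.0.16 (robust quasi-likelihood F test, R 4.3.3), with standard errors and 95% intervals derived from the F statistic. Alternatives were DESeq2 1.42.0, 2 other scalings, no filter, a minimum of 10 counts per library, replicate number or age as a further term, 10-week libraries alone, removal of ribosomal, mitochondrial and non-coding RNA genes, each library left out, and the study's heat map limits, whose fold change was read as log2. The methods name a removal of genes under 300 bp, which was not repeated here. The tests were tried on simulated counts with less spread than the common one of these data, so that trial does not measure how they perform here. Levels per kb used the longest principal transcript in GENCODE M21. P-values measure the spread between pools. The members, lists, motifs, limits and naming rule were chosen with earlier results of these data known. Genes named were the 9 members, *Lyve1*, called list genes, otherwise the extremes of each list, and the 5 genes most like *Apoe*. The lowest gene of 1 list is not reported here. Marker lists covered 11 cell types, of which *Ly6g*, *Trac* and *Ighm* were not in the table. *Adgre1* and *Angptl8* were read under older symbols. The common biological coefficient of variation was 0.931.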

Additional observations from a re-analysis of the deposited data

Results flagged for a closer look

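*Lpl* had subset differences in opposite directions at the 2 ages. At 6 weeks the Lyve-1+ library (191 CPM) was below the Lyve-1- library (587 CPM), and at 10 weeks both Lyve-1+ libraries (592.5 and 610.3 CPM) were above both Lyve-1- libraries (528 and 429 CPM). The interaction of subset and age was 1.95 on the log2 scale (standard error 0.53, unadjusted p = 0.00202 in edgeR), which did not pass after adjustment over all genes (edgeR adjusted p = 0.592). It rests on 1 pool of each subset at 6 weeks, and Lyve-1+ replicate 1 is also a library with many olfactory receptor genes counted. *Fabp4* also turned, from 126 CPM in the Lyve-1- and 26.1 CPM in the Lyve-1+ library at 6 weeks to 45.7 and 13.9 CPM against 187 and 32.8 CPM at 10 weeks, where the subsets overlapped (log2 interaction 4.15 with a standard error of 1.63, edgeR adjusted p = 0.976).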

How the results depend on the processing

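Of 144 member log2 fold changes over 16 alternatives, 128 kept their direction and their side of an adjusted p of 0.05, 2 fell short of it, 5 came to pass it and 9 turned direction. The cause was not tested. *Apoe* stayed positive throughout, from 1.16 to 1.63 (1.29 to 1.63 with each library left out), and fell short without Lyve-1- replicate 3 and, at 1.16, without both libraries with the most olfactory receptor genes counted, an alternative chosen after seeing the data. The members called higher numbered 2 with DESeq2 and with no filter (*Apoe* and *Pltp* in both), 3 with the replicate block, 0 to 2 with each library left out, 0 without both libraries with the most olfactory receptor genes counted and 0 in edgeR at the heat map limits. Members called lower numbered 0 in every fit, as did members called for age in 8 fits. The list genes called numbered 0 in the fit reported, 4 with DESeq2, with no filter and with the replicate block, 3 with at least 10 counts in every library, 2 with age as a second term and 0 to 1 with each library left out. Directions that turned were *Abcg1* at -0.0215 (10-week libraries alone) and -0.15 (without Lyve-1- replicate 1), *Lpl* at 0.32 (10-week libraries alone), 0.24 (without Lyve-1+ replicate 1) and 0.0887 (without both libraries with the most olfactory receptor genes counted), *Lrp1* at 0.28 and 0.09 (without Lyve-1- replicate 2 and Lyve-1+ replicate 1) and *Fabp4* at -0.06 and -1.10 (without Lyve-1- replicate 3 and Lyve-1+ replicate 2). With each library left out, *Abcg1* ran from -0.15 to 0.575, *Lpl* from -0.418 to 0.24, *Lrp1* from -0.359 to 0.28, *Nr1h3* from 0.06 to 1.23, *Lipa* from 0.16 to 0.63, *Pltp* from 0.73 to 1.33, *Abca1* from 0.62 to 1.04 and *Fabp4* from -1.10 to 1.43. Without both libraries with the most olfactory receptor genes counted, *Nr1h3* was at 1.6, *Lipa* at 0.40, *Abcg1* at 0.34, *Fabp4* at 0.33 and *Lrp1* at -0.17. The marker lists, the age and interaction fits and the likeness to *Apoe* were not recomputed without both.

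Over all genes, 84 were called in the fit reported, 254 with DESeq2, 289 with no filter, 270 with the replicate block, 130 with age as a second term, 39 in the 10-week libraries alone, 3 without both libraries with the most olfactory receptor genes counted, and 19 (without Lyve-1- replicate 3) to 153 (without Lyve-1+ replicate 2) with each library left out. The deviations of same-numbered libraries from their subset means correlated at -0.05, -0.0018 and -0.15, and those of differently numbered libraries at -0.10 to 0.16. With 3 libraries in each subset, these values cannot decide whether same-numbered pools came from the same mice, which the labels do not give. With the replicate block *Abca1*, *Pltp* and *Apoe* had an edgeR adjusted p of 0.0438, 0.027 and 9.48e-07. The block could not be fitted for age, since the number holds the age. The depth limits *Nr1h3* most, at 63 counts in its lowest library.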
